A study of Mus musculus with 40 samples.

Results

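The MHC class I antigen presentation pathway was examined through 10 genes, chosen by name: the class I heavy chains H2-K1, H2-D1 and H2-T23, their shared light chain B2m, the peptide transporter genes Tap1 and Tap2, the loading factor Tapbp, the immunoproteasome subunits Psmb8 and Psmb9, and the transactivator Nlrc5. A probe was a member when its gene name in the scanner files equalled one of these symbols, which gave 12 probes for 10 of the 36362 gene names on the array. H2-K1 and Nlrc5 have 2 probes each, and the others have 1. The brighter probe of each pair is called the first. The rule itself reads gene names and no measured value, but the list was drawn up with earlier results of these data known.

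RNA of the cerebrum (labelled cortex) and of the cerebellum was hybridized to 40 single-colour arrays. Both regions had the same 5 groups, each with 4 arrays. The wild type was sampled young, at 2 months, on a normal diet (36 mg of α-tocopherol per kg), and aged, at 29 months, on the normal and on the vitamin E deficient diet. Ttpa-/- mice were sampled at 29 months only, on the deficient diet and on a supplemented one (600 mg per kg). The labels give the C57Bl/6 background for all mice, and the study's methods give 4 mice for a group. Ttpa encodes the α-tocopherol transfer protein, and Ttpa-/- mice lack it in every tissue, so that the brain is short of vitamin E. There was no young Ttpa-/- group and no group of Ttpa-/- mice on the normal diet. The study asked which genes move with chronic oxidative stress and with age, and whether the 2 regions differ.

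Class I molecules show peptides from inside the cell to CD8 T cells. The proteasome cuts proteins into peptides, and under interferon the subunits Psmb8 and Psmb9 replace their constitutive counterparts Psmb5 and Psmb6. The transporter made of Tap1 and Tap2 carries the peptides into the endoplasmic reticulum, where Tapbp (tapasin) holds the heavy chain and B2m next to it until a peptide binds. In the brain, class I is low in most resting cells and is raised by interferons, and microglia and endothelium are among the cells known to carry it.

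The members lie close together in the genome. On mm9, the build of the files, 9 of the 12 probes are on chromosome 17, from Tapbp at chr17:34065963-34066022 to H2-T23 at chr17:36167338-36167574. The Psmb9, Tap1, Psmb8 and Tap2 probes lie next to each other, at chr17:34319174-34319233, chr17:34330854-34330913, chr17:34337771-34337830 and chr17:34353116-34353175. The H2-K1 probes are at chr17:34133055-34133114 and chr17:34133984-34134043 on the minus strand, and the H2-D1 probe is at chr17:35403886-35403945. B2m is on chromosome 2, at chr2:121978401-121978460. The Nlrc5 probes are on chromosome 8, at chr8:97051105-97051164 and chr8:97030478-97030624. No annotation of mm9 was used here, so exons and untranslated regions were not assigned.

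Class I heavy chain genes are alike in sequence, and a probe may read several of them. Each member probe was compared with all 55681 probe sequences of the array for a shared run of at least 16 bases. The H2-K1 first probe and the H2-D1 probe shared no such run with a probe of another gene. The H2-K1 second probe did so with probes of 4 other genes and the H2-T23 probe with probes of 5. Their longest shared run, 29 bases, was with each other. Both are shown 5′ to 3′ with that run in capitals.
H2-K1 second probe: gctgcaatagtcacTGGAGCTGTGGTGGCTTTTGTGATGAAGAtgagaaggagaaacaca
H2-T23: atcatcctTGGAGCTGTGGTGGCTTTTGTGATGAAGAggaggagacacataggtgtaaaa
Values of these 2 probes may therefore hold signal from other class I transcripts. The transcripts themselves were not compared, so a probe without a shared run on the array may still read a related gene.

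RefSeq promoter windows (GRCm38.p6, from 250 bases before to 50 after a start) were given for 8 of the 10 genes, in 9 windows. They were picked after the members were seen to move together, and no link of a pattern to the levels was tested. The windows were searched on both strands for GAAANNGAAA, the core of the interferon-stimulated response element, for the shorter GAANNGAAA and for the NF-kappaB consensus. The shorter pattern can lie within longer ones and was counted wherever it matched. In 80 bases of the H2-K1 and H2-D1 windows, 79 were identical, and both held an NF-kappaB match followed by GAANNGAAA on the opposite strand. B2m held GAAANNGAAA next to an NF-kappaB match, and H2-T23 held GAAANNGAAA on the opposite strand. Matches are in capitals, and each line runs 5′ to 3′ on the strand of the gene.
H2-K1, chr17:34000408-34000487, minus strand: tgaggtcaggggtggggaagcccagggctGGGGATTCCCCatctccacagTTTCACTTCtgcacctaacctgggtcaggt
H2-D1, chr17:35262894-35262973, plus strand: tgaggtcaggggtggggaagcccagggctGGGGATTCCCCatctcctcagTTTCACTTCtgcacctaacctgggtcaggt
B2m, chr2:122147518-122147597, plus strand: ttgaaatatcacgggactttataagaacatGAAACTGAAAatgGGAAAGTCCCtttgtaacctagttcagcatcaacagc
H2-T23, chr17:36032776-36032855, minus strand: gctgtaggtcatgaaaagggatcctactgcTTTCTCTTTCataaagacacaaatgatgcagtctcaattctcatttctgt
Of all 32851 windows in the table, 3.44% held GAAANNGAAA, 7.52% GAANNGAAA and 4.51% the NF-kappaB consensus. Among the 9 member windows these counts were 2, 3 and 4, with the 2 overlapping H2-K1 windows counted separately. The windows of Psmb9 and Tap1, which are read in opposite directions, share 275 bases, and neither held a match to these, nor did Tapbp or Psmb8.

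Levels are log2 signals relative to the 75th percentile of the array, so that 0 is the 75th percentile of all probes and a step of 1 is a doubling. Levels of different probes cannot be set against each other. The 75th percentile was 365 to 925 units, 51.4% to 61.4% of probes were well above background, and no member was saturated. The labels held for Ttpa where its brighter probe could be read: in the cerebellum 4 of 4 arrays of each wild-type group detected it, against 0 of 4 for Ttpa-/- on the deficient and 1 of 4 on the supplemented diet. Whether that probe lies in the deleted part is not given in the sources used here. The 40 arrays came on 5 slides of 8, with no group split over slides. For cortex, the young and the aged wild type on the normal diet shared one. In the cerebellum these groups lay on different slides, so slide and age cannot be told apart there.

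**Figure D1:**
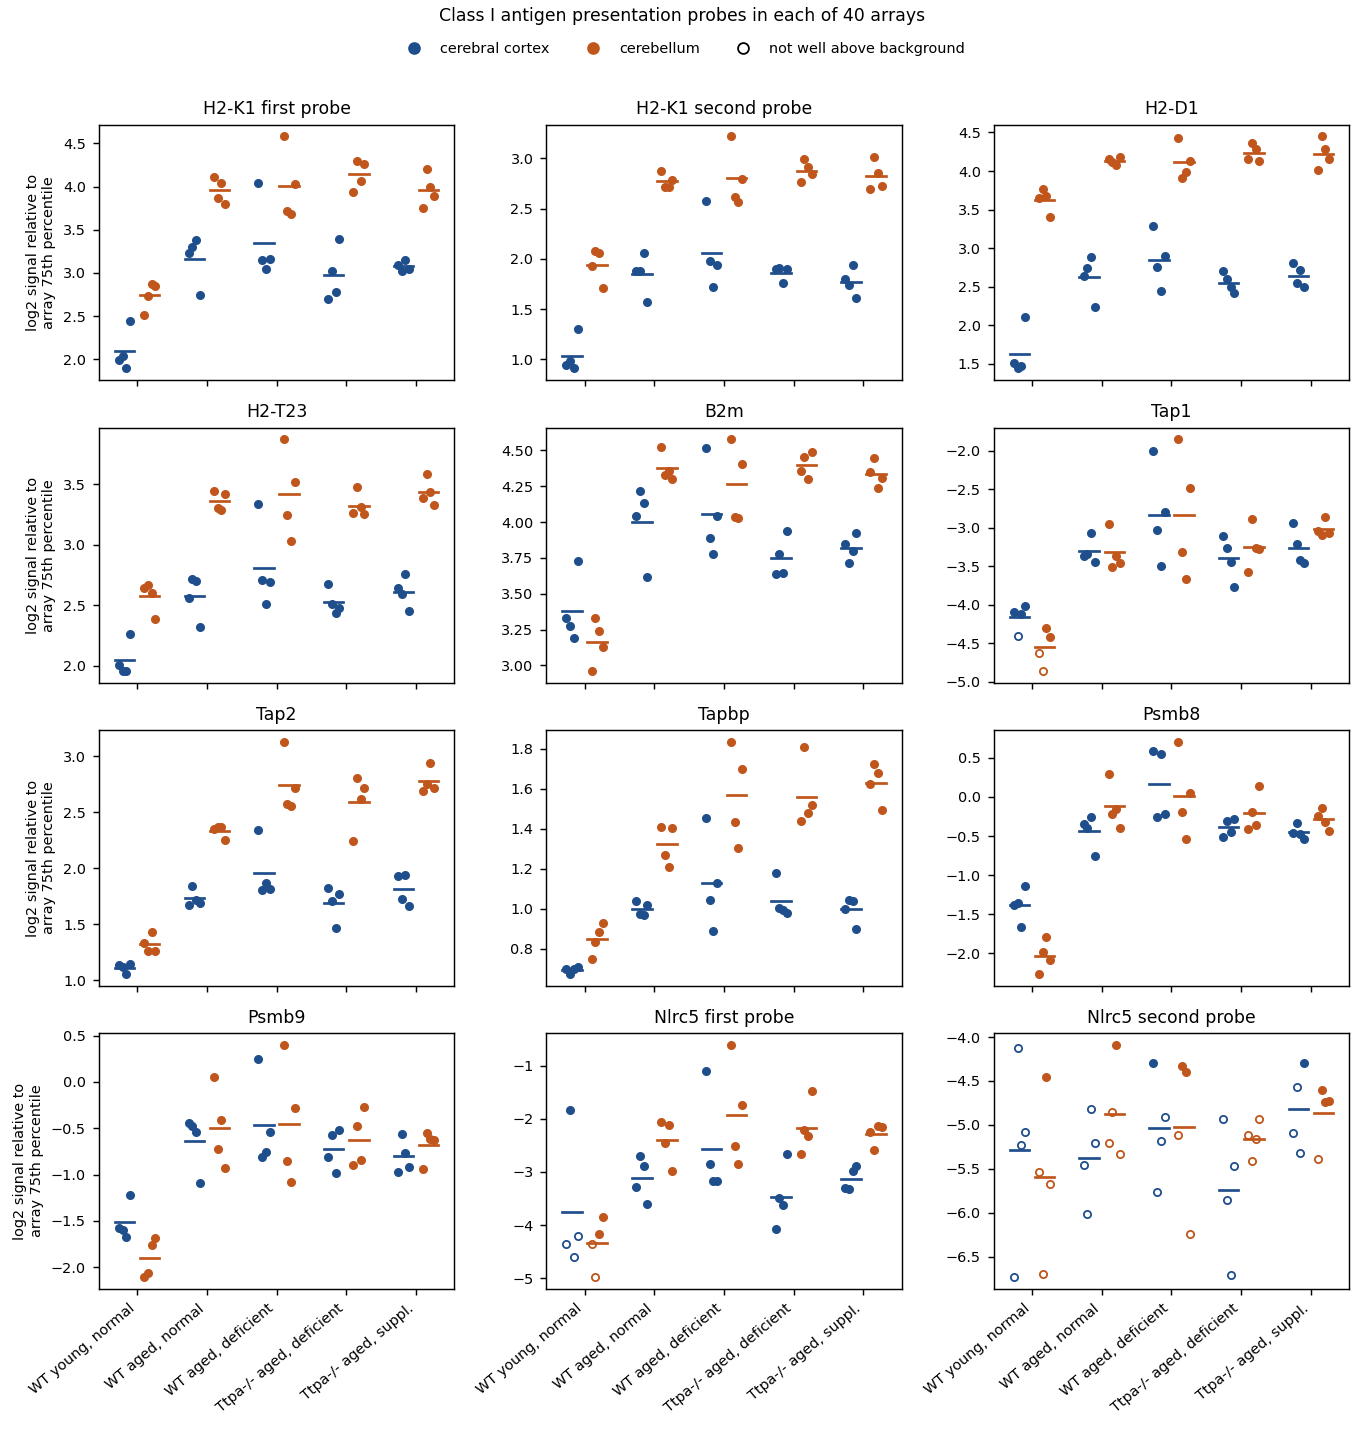
Log2 signal relative to the array's 75th percentile (y axis, scaled separately in each panel) of the 12 member probes in the 5 groups of each region (x axis). Points are single arrays, bars are means of 4, and open points are not well above background. Most probes sit lowest in the young groups in both regions, and Nlrc5 second probe is mostly open.

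With age, class I genes of the heavy chain, light chain, transporter and immunoproteasome were higher in the cerebrum of wild-type mice. Of 11 member probes tested, 7 were up-regulated, for 6 of the 10 genes (H2-K1, H2-D1, B2m, Tap2, Psmb8 and Psmb9), and 0 were down-regulated. A call needs a limma adjusted p under 0.05 over all 28043 probes tested and a fold change over 1.5, and 1.59% of those probes were called up and 0.499% down. The member changes ran from 0.31 to 1.07 on the log2 scale with a median of 0.82, against -0.03 for all probes tested. Of the 11 probes, 2 passed the filter on dim signals only through the aged group, and neither was called. Tap1 was well above background on 3 of 4 young arrays, and Nlrc5 first probe on 1 of 4. The 12th probe, Nlrc5 second probe, was above background on 0 to 3 of 4 arrays in every group and was not tested.

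Among the heavy chains, H2-K1 first probe read 1.99, 2.04, 1.90 and 2.45 in young cortex and 3.23, 3.29, 3.38 and 2.74 in aged cortex. Every aged array lay above every young one, and the change was 1.07 ± 0.19 (SE, limma adjusted p = 0.000526), or 2.10-fold. The second H2-K1 probe changed by 0.82 ± 0.14 (limma adjusted p = 0.000318). H2-D1, the other classical heavy chain of this strain, read 1.50, 1.44, 1.47 and 2.11 when young and 2.64, 2.74, 2.88 and 2.23 when aged, a change of 0.99 ± 0.15 (limma adjusted p = 7.02e-05). Its groups did not overlap either, although young replicate 4 and aged replicate 4 were close. H2-T23 encodes Qa-1, a non-classical heavy chain that shows peptides to NKG2 receptors. It read 1.95 to 2.26 in young and 2.32 to 2.72 in aged cortex, and its change of 0.53 ± 0.14 had a limma adjusted p of 0.0244 but a fold of 1.44.

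B2m, the light chain without which most class I molecules do not reach the surface, read 3.33, 3.28, 3.19 and 3.73 in young cortex. In aged cortex it read 4.04, 4.22, 4.14 and 3.61. The groups overlapped in 1 array of each, and the change was 0.62 ± 0.14 (limma adjusted p = 0.00669). The B2m call was lost in 3 of 8 fits that left out 1 array, and the change ran from 0.55 to 0.75 over these fits.

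Of the loading genes, Tap2 read 1.06 to 1.14 in young and 1.67 to 1.84 in aged cortex, a change of 0.62 ± 0.12 (limma adjusted p = 0.0013). The groups were far apart for their spread. Tap1 read -4.41 to -4.02 and -3.44 to -3.06, without overlap, and its change of 0.86 ± 0.27 missed the threshold (limma adjusted p = 0.0633). Tapbp read 0.67 to 0.71 and 0.97 to 1.04, and its change of 0.31 ± 0.10 missed both thresholds (limma adjusted p = 0.0829).

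Psmb8 and Psmb9, of the immunoproteasome, were higher with age. Psmb8 read -1.37, -1.36, -1.66 and -1.14 in young cortex and -0.34, -0.40, -0.25 and -0.76 in aged cortex, a change of 0.95 ± 0.20 (limma adjusted p = 0.00311). Psmb9 read -1.67 to -1.22 and -1.09 to -0.44, a change of 0.88 ± 0.24 (limma adjusted p = 0.033). Neither overlapped. The Psmb9 call was lost in 6 of 8 fits that left out 1 array, under normexp background correction (limma adjusted p = 0.0666) and without the filter on dim probes (0.0577). Nlrc5, which drives transcription of class I genes, was too dim in young cortex for a firm value: 1 of 4 arrays was above background, at -1.84, and the others were at -4.60 to -4.21. Its change was 0.63 with a 95% interval from -0.35 to 1.61 (limma adjusted p = 0.615).

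In 9 of the 11 probes the aged arrays lay above all young ones, each with an exact two-sided permutation p of 0.0286, the smallest that 4 against 4 can give. The 9 include Tap1, which passed the filter on dim signals only through the aged group. Of all probes tested in the cortex, 6.88% were apart in that direction. The exceptions were B2m (exact permutation p = 0.0571) and Nlrc5 first probe (exact permutation p = 0.4). Leaving out single arrays left 3 to 7 genes called, and the 3 were left without aged replicate 2. Median scaling also left 3, and then B2m (limma adjusted p = 0.165), Tap2 (0.0798) and Psmb9 (0.167) were not called. When only the compared groups were fitted, 4 genes were called: H2-D1 (limma adjusted p = 0.0613), B2m (0.132) and Psmb9 (0.0609) were lost, and Tap1 (0.0246) was gained.

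In the cerebellum heavy chain, light chain, Tap2 and immunoproteasome probes were up-regulated with age, and Tap1 and Nlrc5, dim in young mice, were called too. Of 11 member probes tested over 30627, 9 were up-regulated for 8 genes, against 3.99% of all probes tested up and 1.04% down, and no member was down-regulated. The changes ran from 0.47 to 1.93 with a median of 1.21, against -0.01 for all probes. All 11 probes had the 4 aged arrays above the 4 young ones (9.85% of all probes did so). Tap1 and Nlrc5 first probe were above background on 2 of 4 young arrays each, so they were tested only through the aged group where they are high. Without these 2, 7 of 9 probes were called, and 9 of 9 were apart. The count of called genes stayed at 8 whichever array was left out and under median scaling.

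Psmb8 read -2.27, -1.98, -1.79 and -2.08 in young cerebellum and 0.29, -0.21, -0.15 and -0.40 in aged cerebellum. The change was 1.91 ± 0.20 (limma adjusted p = 1.36e-08), or 3.76-fold, with the groups more than 1 log2 unit apart. Psmb9 read -2.11 to -1.68 and -0.93 to 0.06, a change of 1.40 ± 0.24 (limma adjusted p = 0.000127). B2m read 2.96, 3.33, 3.24 and 3.13 when young and 4.53, 4.33, 4.36 and 4.30 when aged, a change of 1.21 ± 0.14 (limma adjusted p = 1.32e-07).

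Of the transporter genes, Tap2 was called, and so was Tap1, which was tested only through the aged group where it is high. Tap2 read 1.26 to 1.43 in young and 2.25 to 2.37 in aged cerebellum, a change of 1.01 ± 0.12 (limma adjusted p = 1.69e-07). Tap1 read -4.86 to -4.30 and -3.51 to -2.95, a change of 1.23 ± 0.27 (limma adjusted p = 0.00172), and 2 of the 4 young arrays detected it. Under normexp background correction the change of Tap1 was 0.45 and no longer passed the fold. Tapbp read 0.75 to 0.93 and 1.21 to 1.41. Its change of 0.47 ± 0.10 had a limma adjusted p of 0.00136 and a fold of 1.39.

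Of the heavy chains in the cerebellum, H2-K1 first probe changed by 1.22 ± 0.19 (limma adjusted p = 2.67e-05) and the second probe by 0.83 ± 0.14 (limma adjusted p = 7.47e-05). H2-T23 changed by 0.79 ± 0.14 (limma adjusted p = 0.000173). H2-D1 read 3.65, 3.77, 3.67 and 3.40 when young and 4.16, 4.11, 4.07 and 4.19 when aged. It was already high in young cerebellum, and its change of 0.51 ± 0.15 had a limma adjusted p of 0.0261 and a fold of 1.42. Nlrc5 first probe read -4.35, -4.98, -4.17 and -3.84 when young, with 2 of 4 arrays above background, and -2.07, -2.45, -2.13 and -2.98 when aged, a change of 1.93 ± 0.48 (limma adjusted p = 0.00695).

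**Figure D2:**
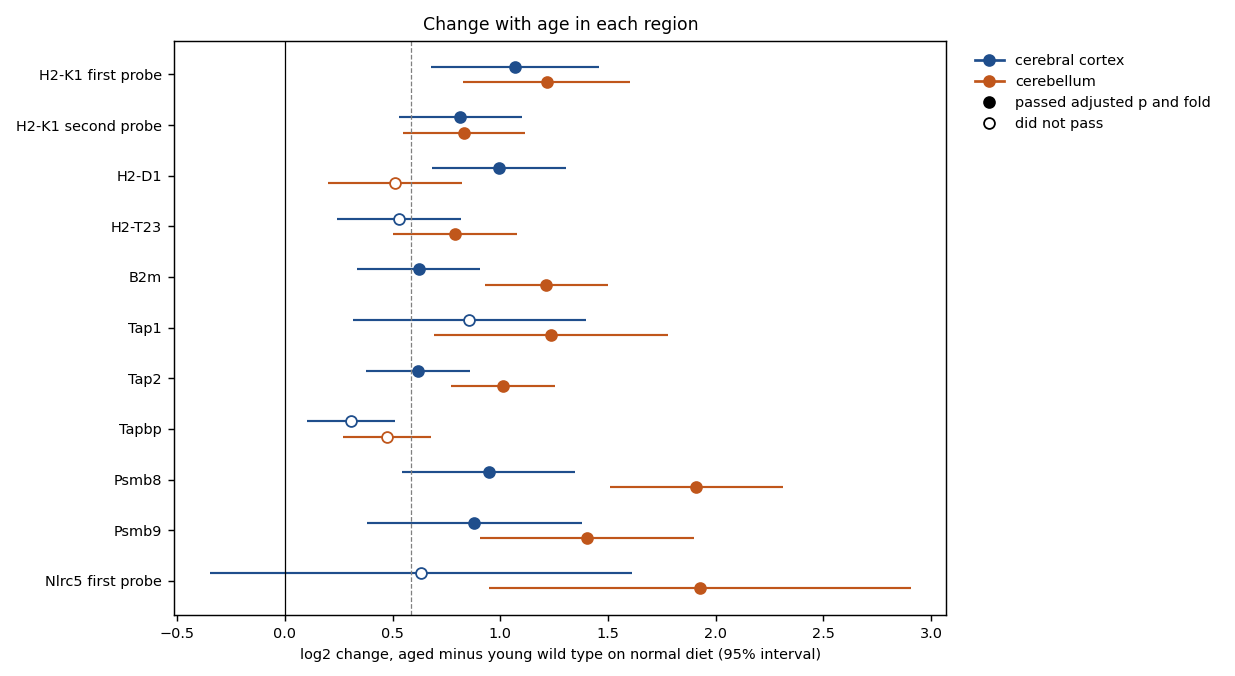
Change with age in normally fed wild-type mice, aged minus young, on the log2 scale (x axis) for 11 member probes (y axis), with 95% intervals from limma. Filled points passed an adjusted p under 0.05 and a fold over 1.5 (dashed line). All changes are above 0, from 0.31 to 1.07 in the cerebral cortex and from 0.47 to 1.93 in the cerebellum.

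The fitted change with age was larger in the cerebellum for 10 of 11 probes, with a median difference of 0.38 against 0.02 for all probes tested. The 10 include both H2-K1 probes, and Tap1 and Nlrc5 first probe, which were dim in young mice. The share of all probes with a larger change there was not counted. Young and aged arrays shared a slide in the cortex but not in the cerebellum, so slide and region cannot be told apart in such a difference. That difference was tested as an interaction, and limma called 0 of 11 member probes, against 1% of 31372 probes called higher and 0.462% called lower in the cerebellum. By unadjusted p, 4 of 11 were under 0.05, but the share of all probes under it was not counted. Psmb8 came closest, with a change larger by 0.97 ± 0.28 in the cerebellum (limma adjusted p = 0.0722). For B2m the difference was 0.59 ± 0.20 (limma adjusted p = 0.151), for Tap2 0.40 ± 0.17 (0.313), and for H2-D1 it ran the other way at -0.48 ± 0.22 (0.354). With array weights 1 gene was called, and by unadjusted p with the same fold 2 were.

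Aged mice of every genotype and diet had higher levels than young ones. In the cerebellum, all 16 aged arrays lay above all 4 young ones in 11 of 11 member probes, against 3.35% of all probes tested. In the cerebrum, 9 of 11 did so, against 1.96%, and the exceptions were again B2m and Nlrc5 first probe. These counts include Tap1 and Nlrc5 first probe, which were tested only through an aged group. Without them they are 9 of 9 in the cerebellum and 8 of 9 in the cerebrum. The aged cerebellum arrays came from 2 slides and the young ones from another. Averaged over the 11 probes, the shift of a library from the young mean ran from 0.46 to 1.65 in the aged cortex arrays and from 0.88 to 1.90 in the aged cerebellum arrays, while the young arrays lay between -0.19 and 0.17 and between -0.09 and 0.12.

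**Figure D3:**
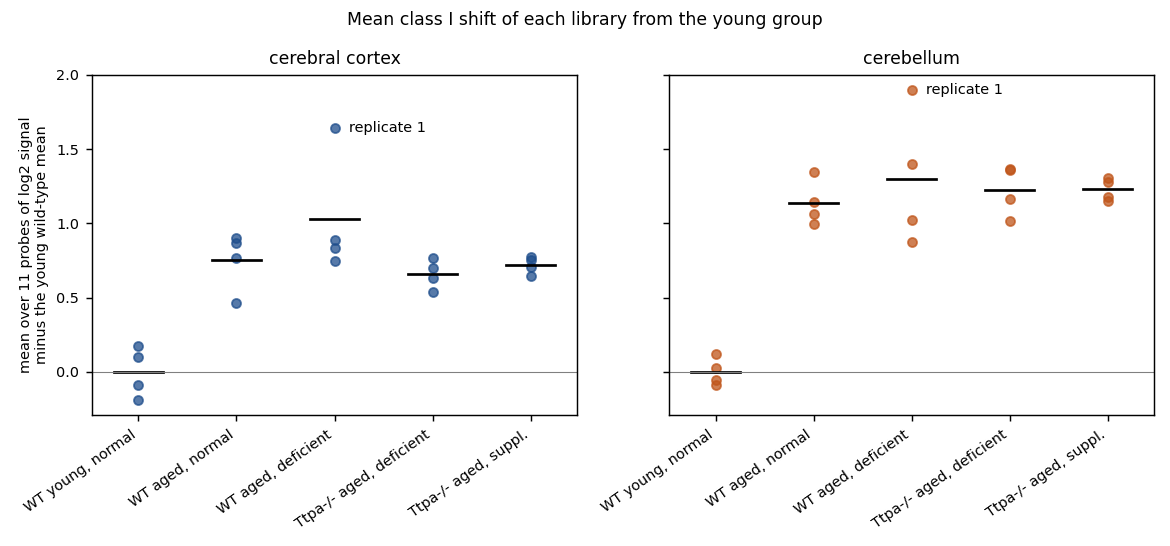
Mean over 11 member probes of the log2 signal minus the mean of the young wild-type group of the same region (y axis), for each of the 40 arrays by group (x axis). Bars are group means. All aged arrays lie above the young ones, and replicate 1 of the wild-type mice on the deficient diet is the highest array in both regions, at 1.65 and 1.90.

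Diet and genotype moved no member past both thresholds in either region. Of 11 probes tested in each of the 10 comparisons, 0 were called. With the deficient diet in wild-type mice, 0.117% of all probes tested in the cerebrum were called up and 0.106% down, and 0.461% and 0.82% in the cerebellum. Between deficient Ttpa-/- and normally fed wild-type mice these shares were 3.14% and 1.6% in the cerebrum and 2.67% and 1.79% in the cerebellum. For both genotypes on the deficient diet they were 1.53% and 1.53%, and 3.02% and 1.92%. For the supplement in Ttpa-/- mice they were 1.32% and 1.99%, and 0.209% and 0.134%, and for supplemented Ttpa-/- mice against the normally fed wild type 0.0354% and 0.0566%, and 3.34% and 1.57%. By unadjusted p under 0.05, 0 to 4 of 11 probes passed in each. The share of all probes under that p was not counted, so no result is drawn from these counts. The comparisons share groups, so their member values are not independent of each other. Median scaling turned the sign of 4 of the small member medians: from 0.05 to -0.12 for the deficient diet in wild-type cerebellum, where it moved the median of all probes to -0.19, from -0.09 to 0.09 for the genotypes on that diet in the cerebellum, where all probes moved to 0.17, from -0.07 to 0.01 for deficient Ttpa-/- against normally fed wild-type cortex, and from 0.09 to -0.02 for the supplement in Ttpa-/- cortex.

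Between deficient Ttpa-/- and normally fed wild-type mice of the same age, where genotype and diet both differ, the member changes ran from -0.35 to 0.05 in the cerebrum (median -0.07). The lowest limma adjusted p was 0.209, and 0 of 11 probes had an unadjusted p under 0.05. In the cerebellum they ran from -0.12 to 0.26 (median 0.10, lowest limma adjusted p = 0.114), with 2 of 11 at an unadjusted p under 0.05. B2m in the cerebrum read 3.64, 3.78, 3.64 and 3.94 in these mice and 4.04, 4.22, 4.14 and 3.61 in the wild type, which overlapped. The supplement in Ttpa-/- mice gave changes from -0.09 to 0.34 in the cerebrum and from -0.18 to 0.23 in the cerebellum. The 2 cerebellum groups of that comparison shared a slide, as did the 2 cerebellum groups of the deficient diet in wild-type mice. In every other comparison of diet or genotype the groups lay on different slides. There, slide cannot be told apart from diet or genotype.

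The transporter gene Tap2 had a limma adjusted p under 0.05 in the cerebellum, with a fold under 1.5. In the cerebellum it read 2.25 to 2.37 in the normally fed aged wild type and 2.55 to 3.12 on the deficient diet, the only one of 11 member probes without overlap (6.82% of all probes were apart in that direction), a change of 0.41 ± 0.12 (limma adjusted p = 0.0446, fold under 1.5). In supplemented Ttpa-/- mice it read 2.69 to 2.94, a change of 0.44 ± 0.12 from the wild type on the normal diet (limma adjusted p = 0.012), and Tapbp there changed by 0.31 ± 0.10 (limma adjusted p = 0.0371). These 2 of 11 probes were apart in that comparison, against 9.32% of all probes. The wild-type and Ttpa-/- groups of that comparison lay on different slides, so slide and genotype cannot be told apart. Without replicate 1 of the deficient wild-type group, the Tap2 change with the diet was 0.28 (limma adjusted p = 0.268). Psmb8 in the cerebrum of wild-type mice on the deficient diet read 0.58, -0.26, 0.55 and -0.21 against -0.76 to -0.25, a change of 0.60 ± 0.20 (limma adjusted p = 0.138). Against it, Psmb8 of Ttpa-/- mice on the same diet read -0.51 to -0.28, lower than each wild-type array (1 of 11 probes, against 9.5% of all), with a change of -0.55 ± 0.20 (limma adjusted p = 0.0597). Without wild-type replicate 2, or without replicate 4, 1 member gene was called down in that comparison.

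**Figure D4:**
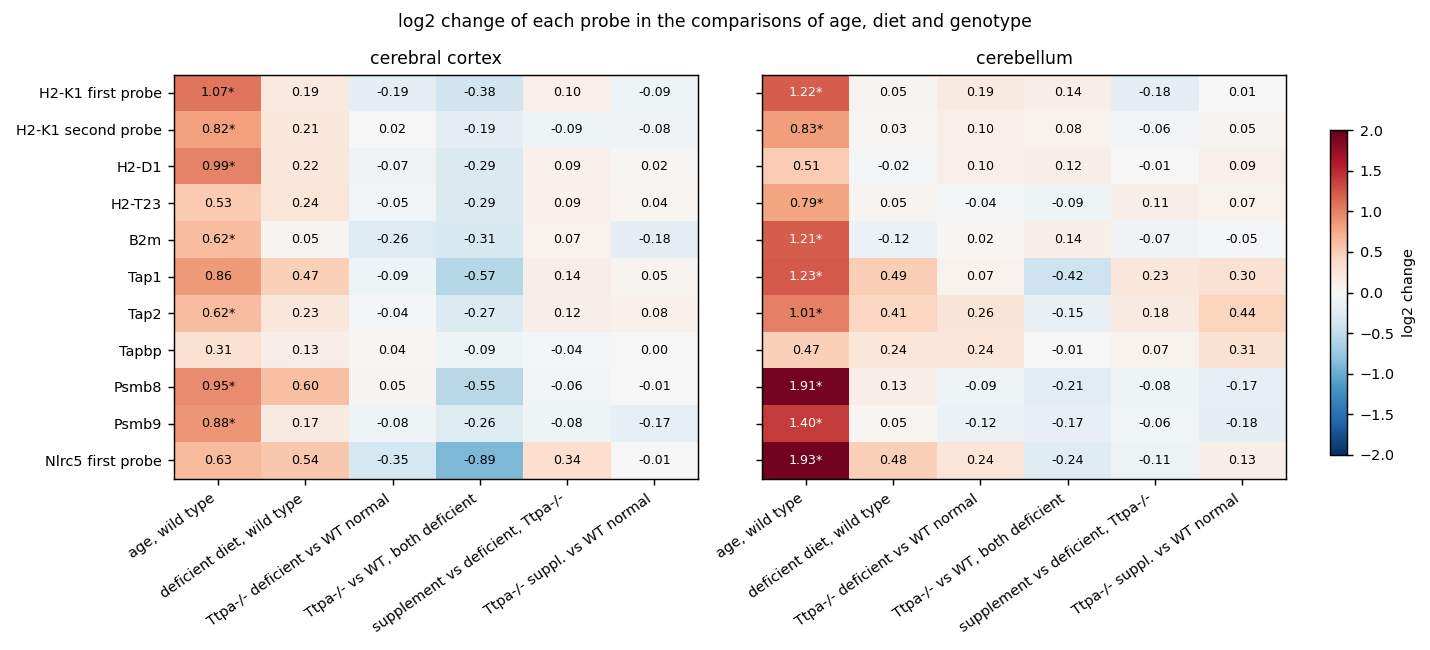
Log2 change of 11 member probes (rows) in the comparisons of age, diet and genotype (columns) in the cerebral cortex (left) and the cerebellum (right). Asterisks mark an adjusted p under 0.05 with a fold over 1.5. All asterisks are in the columns for age.

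One library stood apart. Replicate 1 of the wild-type mice on the deficient diet had the highest level of its group in 11 of 11 member probes in the cerebrum and in 11 of 11 in the cerebellum, with a mean deviation from the group of 0.62 and 0.60. In the cerebrum its B2m was 4.52 against 3.78 to 4.04 in the other 3, and its Psmb9 was 0.25 against -0.81 to -0.54. In the cerebellum its Tap1 was -1.85 against -3.67 to -2.48. The labels do not say whether the 2 libraries came from 1 mouse. Without this replicate in both regions, the median member change with the deficient diet was 0.05 in place of 0.22 in the cerebrum and -0.11 in place of 0.05 in the cerebellum. The median difference between the genotypes on that diet then went from -0.29 to -0.15 in the cerebrum and from -0.09 to 0.12 in the cerebellum, and no member was called. The mean of the microglia markers in this replicate, 1.73 in the cerebrum and 1.13 in the cerebellum, was the lowest of its group in the cerebrum (1.73 to 2.06) and within its group in the cerebellum (1.11 to 1.44). The mean of the T cell markers was the highest of its group in both regions, at -2.94 against -3.68 to -3.42 in the cerebrum and at -3.33 against -3.64 to -3.37 in the cerebellum. The part of these cells in the levels of this replicate was not tested.

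The members varied together within groups. After the group means were subtracted, the 55 pairs of 11 probes had correlations from 0.19 to 0.95 over the 40 arrays, with a median of 0.68. The highest was between the H2-K1 second probe and H2-T23, the probes with the 29-base shared run. The pairs also include both probes of H2-K1 (0.83). The arrays share slides, and replicate 1 above is among them. Outside the members, the genes whose level was most like B2m, among 13582 candidates and after subtracting region means, were Ctss (r = 0.95), a lysosomal protease of antigen presenting cells, Ifi204 (0.94), an interferon-induced DNA sensor, and Hvcn1 (0.93), a proton channel of leukocytes. For Tap1 they were Irgm1 (0.92), Irf1 (0.91) and Ifitm3 (0.90), which are known as interferon-induced genes. For Psmb8 they were Irgm1 (0.92), Ifi204 (0.92) and Lilrb3 (0.91). Each r is Pearson's over the 40 arrays, which include the age groups.

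H2-K1 and H2-D1 were higher in the cerebellum than in the cortex of normally fed wild-type mice, as were many other probes. In young wild-type mice, 9 member probes were tested, of which 3 were higher in the cerebellum, for H2-K1 and H2-D1, and 1 was lower, for Psmb8. Of all probes tested, 19.3% were called higher and 19.1% lower, so a call between the regions was common on the array. The heavy chain H2-T23 was not called in young mice. H2-D1 read 1.44 to 2.11 in young cortex and 3.40 to 3.77 in young cerebellum, a difference of 1.99 ± 0.15 (limma adjusted p = 4.43e-13). H2-K1 first and second probe differed by 0.65 ± 0.19 (limma adjusted p = 0.0039) and 0.91 ± 0.14 (1.16e-06). Psmb8 differed by -0.64 ± 0.20 (limma adjusted p = 0.00546), and was not called without young cortex replicate 4 or young cerebellum replicate 1, under normexp or with array weights. The H2-K1 first probe was not called without young cortex replicate 3, where its difference was 0.58.

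In normally fed aged wild-type mice, 5 of 11 member probes were higher in the cerebellum and 0 lower, against 17.8% and 15.8% of all probes. The genes were H2-D1 (1.51 ± 0.15, limma adjusted p = 3.83e-10), H2-K1 (first probe 0.79 ± 0.19, 0.000651), H2-T23 (0.79 ± 0.14, 1.52e-05) and Tap2 (0.60 ± 0.12, 6.19e-05). Tap2 fell under the fold with median scaling and without aged cortex replicate 1, at 0.58 in both. Psmb8, at -0.76 to -0.25 in the cortex and -0.40 to 0.29 in the cerebellum, overlapped. The regions lay on different slides, so slide and region cannot be told apart. For B2m the levels in young mice, 3.38 ± 0.24 (SD, n = 4) in the cortex and 3.17 ± 0.16 in the cerebellum, differed by less than the test could call (limma adjusted p = 0.181).

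Ordered by mean, H2-D1 was lowest in young cortex (1.63 ± 0.32, SD, n = 4), then in the aged cortex groups (2.55 ± 0.12 to 2.84 ± 0.35), then in young cerebellum (3.62 ± 0.16) and highest in the aged cerebellum groups (4.11 ± 0.23 to 4.23 ± 0.11). The aged groups within a region overlapped each other. Psmb8 had another order: lowest in young cerebellum (-2.03 ± 0.20), then in young cortex (-1.38 ± 0.21), and the 8 aged groups lay between -0.45 ± 0.08 and 0.16 ± 0.46, where neighbours in the order overlapped.

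The rest of the pathway was described through gene lists. Of 26 other class I and class I-like genes, 21 were on the array by name and 15 could be tested. With age, 9 of the 15 were up-regulated in the cerebrum and 7 in the cerebellum, against 1.59% and 3.99% of all probes tested. The list medians were 0.66 and 0.60, against -0.03 and -0.01 for all probes, and none was down-regulated. H2-M3, which shows formylated peptides, changed by 0.84 ± 0.14 (limma adjusted p = 0.000332) in the cerebrum and by 1.23 ± 0.14 (1.69e-07) in the cerebellum. H2-Q7, a Qa-2 heavy chain, changed by 1.03 ± 0.17 (0.000224) in the cerebrum and by 0.56 ± 0.17 (0.0311, fold under 1.5) in the cerebellum. Mr1, which shows vitamin B metabolites, changed by 0.66 ± 0.12 (0.000645) and by 0.51 ± 0.12 (0.00378, fold under 1.5). Fcgrt, a class I-like Fc receptor that binds B2m, changed by 0.10 (0.804) and 0.02 (0.964). Probes of this list were not compared with each other. Class I heavy chain genes are alike in sequence, so these counts may not be independent.

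None of the other listed genes of peptide supply and loading, nor of the constitutive proteasome counterparts, was called with age in either region. Of 11 other genes of peptide supply and loading, 10 were tested in the cerebrum and 11 in the cerebellum, and 0 passed in either direction, with medians of 0.01 and 0.11. Among them, Psme1, a subunit of the proteasome activator PA28, changed by 0.45 ± 0.09 in the cerebellum (limma adjusted p = 0.000419, fold under 1.5) and by 0.20 ± 0.09 in the cerebrum (0.239). Psmb10, the third immunoproteasome subunit, changed by -0.06 ± 0.10 (0.874) in the cerebrum and by 0.38 ± 0.10 (0.0131, fold under 1.5) in the cerebellum. Of 4 constitutive counterparts, 0 passed, with medians of 0.02 in both regions. Psmb5, replaced by Psmb8, changed by -0.06 (limma adjusted p = 0.842) and 0.06 (0.763), and Psmb6, replaced by Psmb9, by 0.07 (0.783) and 0.10 (0.498).

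Among 23 regulators of class I transcription, 21 were tested, and 1 was up-regulated with age in the cerebrum and 4 in the cerebellum. Of all probes tested, 1.59% and 3.99% were called up. The list medians were 0.15 and 0.08. The gene called in both was Irf8, a factor of myeloid cells, at 0.71 ± 0.15 (limma adjusted p = 0.00354) and 1.73 ± 0.15 (3.03e-10), and its difference between the regions also passed (1.03 ± 0.21, 0.00579). Irf1, which binds class I promoters, changed by 0.51 ± 0.20 (0.181) in the cerebrum and by 1.01 ± 0.20 (0.000677) in the cerebellum, and Irf9 by 0.59 ± 0.19 (0.0746) and 1.04 ± 0.19 (0.000215). The interferon genes Ifng and Ifnb1 were not tested, since at most 1 of the 2 was above background in any library. Of 8 names listed as receptors that read class I, 7 were on the array and 2 were tested. Lilrb3, an inhibitory receptor for class I, rose with age by 2.15 ± 0.26 (1.63e-06) and by 3.02 ± 0.26 (3.52e-10). The other tested gene, the T cell marker Cd3e, was called in neither region, and the list medians were 0.99 and 1.50.

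Markers of other cells moved with some of these results. Of 9 microglia markers, 1 was up-regulated with age in the cerebrum and 7 in the cerebellum, against 1.59% and 3.99% of all probes tested. In the cerebellum the list's mean level was -0.09 to 0.38 in young arrays and 1.32 to 1.43 in aged ones. In the cerebrum it was 1.69 to 1.87 and 1.78 to 2.13. Cd68, a lysosomal protein of phagocytes, changed by 0.93 (limma adjusted p = 0.0124) in the cerebrum and by 2.99 (1.22e-11) in the cerebellum, while P2ry12, a receptor of resting microglia, changed by -0.15 (0.795) and 0.29 (0.345). The change with age was called larger in the cerebellum in 6 of the 9, against 1% of all probes tested. Of 9 T cell markers, 4 were tested, 0 and 1 were called up, and Cd3d, Cd3g, Cd8a, Cd8b1 and Gzmb were above background on no cortex array of the young or aged wild type on the normal diet. In aged cerebellum on that diet this held for Cd8a, Cd8b1 and Gzmb. The mean level of the list was -3.63 to -3.21 in young and -3.44 to -3.26 in aged cortex, and -4.02 to -3.78 and -3.60 to -2.86 in the cerebellum. Of 7 endothelium markers 0 were called in either region, with medians of -0.10 and -0.04, and of 5 astrocyte markers only Gfap was called, at 1.51 (1.57e-06) and 1.87 (4.56e-09). Fewer cells of a type and less RNA per cell cannot be told apart in these whole-tissue samples, and the part of these cells in the class I results was not tested.

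Blood and choroid plexus also varied between libraries. The mean of 4 blood markers was -3.71 to -2.55 in young and -1.78 to -0.49 in aged cortex on the normal diet, and -1.63 to -0.53 and 0.07 to 2.27 in the cerebellum. It was higher in aged than in young arrays in both regions, as the class I members were, and its part in that result was not tested. The mean of 8 choroid plexus markers was -2.56 to 1.62 in young and -2.13 to 1.55 in aged cortex, and -1.54 to 2.39 in young and -2.56 to -2.08 in aged cerebellum. Without the 2 cortex arrays low in these markers, young and aged replicate 4, 7 member genes were called with age in the cerebrum in place of 6.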

How the data were processed

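RNA from the cerebrum and cerebellum was measured on 40 Agilent single-colour arrays. The authors deposited each array's spot intensity, background-subtracted and detrended by Feature Extraction (10.7.3.1 per the file headers, 10.1.1.1 in the submitters' processing notes) and not normalized between arrays, and log2 values centred on each probe's mean, which differed by a median of 0.00085 from those used here after the same centring. Flags for outlier spots and background, values of other kinds, were also deposited. Flagged spots were left out, log2 intensities of repeated spots were averaged, 55589 of 55681 probes were kept, and the log2 of each array's 75th percentile was subtracted, with R 4.3.3 and its package data.table (version 1.17.8).

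Groups came from the labels. limma 3.58.1 was fitted with 1 coefficient for each of 10 groups. Adjustment by Benjamini-Hochberg covered each probe that every array of one compared group (or more) detected above background. A call needed an adjusted p under 0.05 and a fold over 1.5. Every member probe is named, and for a gene with several probes the brightest counts. At most 4 genes of each list are named, picked after their values were seen. The members and lists were chosen with earlier results of these data known. The limma p-values rest on the spread of arrays within groups. That spread was estimated for each probe from all 10 groups together, not only from the groups compared. On simulated data with 200 probes changed 2-fold, 152 were called for the cerebral comparison of age over 28043 probes and 142 for the cerebellar one over 30627, none in the wrong direction. Sequences came from the scanner files and RefSeq (GRCm38.p6), figures from Python 3.11.15 with matplotlib 3.10.9. The alternatives are those of the closing section, and the depth of arrays is limited by their number. One regulator of the lists and one promoter pattern are not reported here.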

Additional observations from a re-analysis of the deposited data

Results flagged for a closer look

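Of 120 sets of 4 arrays (12 probes in 10 groups), 10 held an array whose gap to the nearest other was above Dixon's 95% critical share of its group's range, where chance gives about 5%. In young cortex these were replicate 4 for H2-D1 (2.11) and H2-T23 (2.26), the highest of their groups, and replicate 2 for Nlrc5 first probe (-1.84). In aged wild-type cortex on the normal diet it was replicate 4 for Psmb9 (-1.09), the lowest. Replicate 1 of the wild type on the deficient diet was the highest in the cortex for H2-K1 first probe (4.04), Tap2 (2.34) and Nlrc5 first probe (-1.09). In the cortex of Ttpa-/- mice on the deficient diet, replicate 3 was the lowest for H2-K1 second probe (1.76) and replicate 1 the highest for Tapbp (1.18). In aged wild-type cerebellum on the normal diet, replicate 4 was the lowest for Tap2 (2.25).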

How the results depend on the processing

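Other settings tried were scaling by the median or by quantiles, background correction by normexp (offset 50), the deposited log2 values, testing dim probes too, array weights, a fit of only the groups compared, a block on replicate numbers, unadjusted p, the t-test of the methods before and after adjustment, keeping flagged spots, averaging a gene's probes, and omitting each array in turn. No called change of a named member turned its direction under these. With age in the cerebrum, where 6 genes were called, median scaling left 3 and leaving out 1 array gave 3 to 7. The methods' t-test after Benjamini-Hochberg gave 3. By its adjusted p, H2-K1 first probe (0.0523), H2-D1 (0.0772), B2m (0.137) and Psmb9 (0.0745) were lost, and Tap1 (0.0346) was gained. The interaction of age and region, at 0, gave 1 with array weights and 2 by unadjusted p. The deficient diet in wild-type cortex, at 0, gave 1 by unadjusted p and 0 to 1 without single arrays. Ttpa loss on the deficient diet in the cortex, at 0, gave 0 to 1, and the regions in young mice, at 3 genes, gave 2 to 4. Without single arrays, the regions in aged mice, at 4, gave 3 to 4, ageing in the cerebellum 8 to 8, and each other comparison 0 to 0. Leaving out both cortex arrays low in choroid plexus markers, chosen after seeing the data, gave 7.

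With the replicate block, 6 genes were called with age in the cerebrum and 8 in the cerebellum, and the block changed no call. Same-numbered arrays were not taken as pairs, since in no comparison were all 4 correlations of their deviations over 0.1: with age they ran from 0.00 to 0.49 over the pairs in the cerebrum and from -0.22 to 0.24 in the cerebellum, and 3 of 4 and 2 of 4 correlated best with their own number. A block on slides had no solution, since each group lies within 1 slide. Dim signal limits Nlrc5 and Tap1 in young mice.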
